A study of Mus musculus with 11 samples.

Results

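Trimethylation of lysine 27 of histone H3 (H3K27me3) was compared between mouse embryonic stem (mES) cells and adult mouse cardiomyocytes (CMa) over 10049 regions. These are all regions on chromosomes 1 to 19 that the authors' deposited table for this pair lists, of 120136 regions on those chromosomes in the 12 comparison tables of the series. A region entered the table through a false discovery rate under 0.01 for the reads of these 2 libraries, so every member had passed that limit before any count given here. The member with the highest rate had 87 mES reads and 32 CMa reads.

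The adult cells were left ventricle cardiomyocytes of mice 2 months old, dissociated with enzymes and purified, and gave 1 H3K27me3 library. Neonatal cardiomyocytes (CMp) of mice 1 day old, for which the labels name no part of the heart, gave another and are used here only for comparison. The labels give no strain, sex or genotype for either, nor the number of hearts behind a library. The mES reads are no sample of this series. Per the deposited description, aligned H3K27me3, H3K4me3 and H3K9me3 reads of an earlier stem cell data set were moved from build mm8 to mm9, and H3K79me2 reads of another data set were aligned to mm9. Cell type, laboratory and protocol therefore cannot be told apart, and with 1 library on each side no difference has a replicate check. In bulk chromatin, fewer cells with a mark and less of the mark per cell cannot be told apart either. Regions are given by their mm9 coordinates and were not assigned to genes here, so the cell types were not checked against marker genes.

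H3K27me3 is written by Polycomb repressive complex 2, whose catalytic subunit is EZH1 or EZH2, and is read by chromodomain proteins of Polycomb repressive complex 1. It is known for covering the promoters, and often the whole loci, of developmental regulators that a cell keeps silent. In stem cells many of these promoters also carry H3K4me3, the mark of active or poised promoters, and are then called bivalent. H3K79me2, written by DOT1L, lies over the first part of transcribed genes, and H3K9me3 is a mark of heterochromatin.

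The list was split almost evenly by direction. Of the 10049 regions, 5045 (50.2%) had the higher normalised read count in CMa and 5004 (49.8%) in mES. A difference of at least 4-fold was reached by 2775 regions (27.6%) higher in CMa and by 4153 (41.3%) higher in mES. Which side had more depends on the lowest values, as given in the next paragraph. The even split rests on the scaling: the deposited values multiply mES reads by 0.491 and CMa reads by 2.04, a ratio of 4.15, and the reads without these factors were higher in CMa in 2608 regions (26.0%) and higher in mES in 7302. Equal read sums outside pile-up, which moved each log2 ratio by -0.29, gave 5030 and 5019.

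Both libraries have a limit that shows in these values. The table holds reads left after subtraction of control reads, and its lowest value equals 1 read, called the floor here. CMa stood at the floor in 3745 regions (37.3%) and mES in 745 (7.41%). With floor values set to 3 reads, 2775 regions were at least 4-fold higher in CMa and 1998 in mES. The larger 4-fold count toward mES therefore rests on regions at the CMa floor. Among the 5559 regions above the floor in both, 4300 (77.4%) were higher in CMa. SICER islands, called by the authors apart from the table, were present in some regions at that floor: a CMa island lay in 23 shared regions and in 51 others whose CMa value was 1 read.

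A small set of regions took most of the CMa reads. In 201 regions a library reached at least 100 normalised reads per kb, here called high pile-up. They held 60.9% of the 662146 CMa reads of the table and 0.438% of the 881249 mES reads, and 200 of them were higher in CMa. The highest was chr10:104053800-104055399, with 1 mES read and 89803 CMa reads over 1600 bp, followed by chr6:18833800-18836399 with 1 and 56156 reads and chr3:41057200-41060199 with 1 and 40546. Many of these intervals were high in other CMa libraries as well. At the first of them, the deposited tables gave 135410 CMa reads for H3K4me3, 8272 for H3K79me2 and 74633 for H3K9me3, with 1 mES read each time. Of the pile-up regions, 184 were listed for H3K4me3 and all 184 were higher in CMa, as were 149 of 150 listed for H3K9me3. For H3K79me2 36 were listed, 35 of them higher in CMa, and the regions on chromosomes 6 and 3 were not among them. Leaving the pile-up regions out, with the deposited factors kept, gave 4845 regions higher in CMa and 5003 higher in mES. The median log2 ratio of CMa over mES went from 0.32 to -0.60. The part of pile-up in the factors was not tested.

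**Figure D1:**
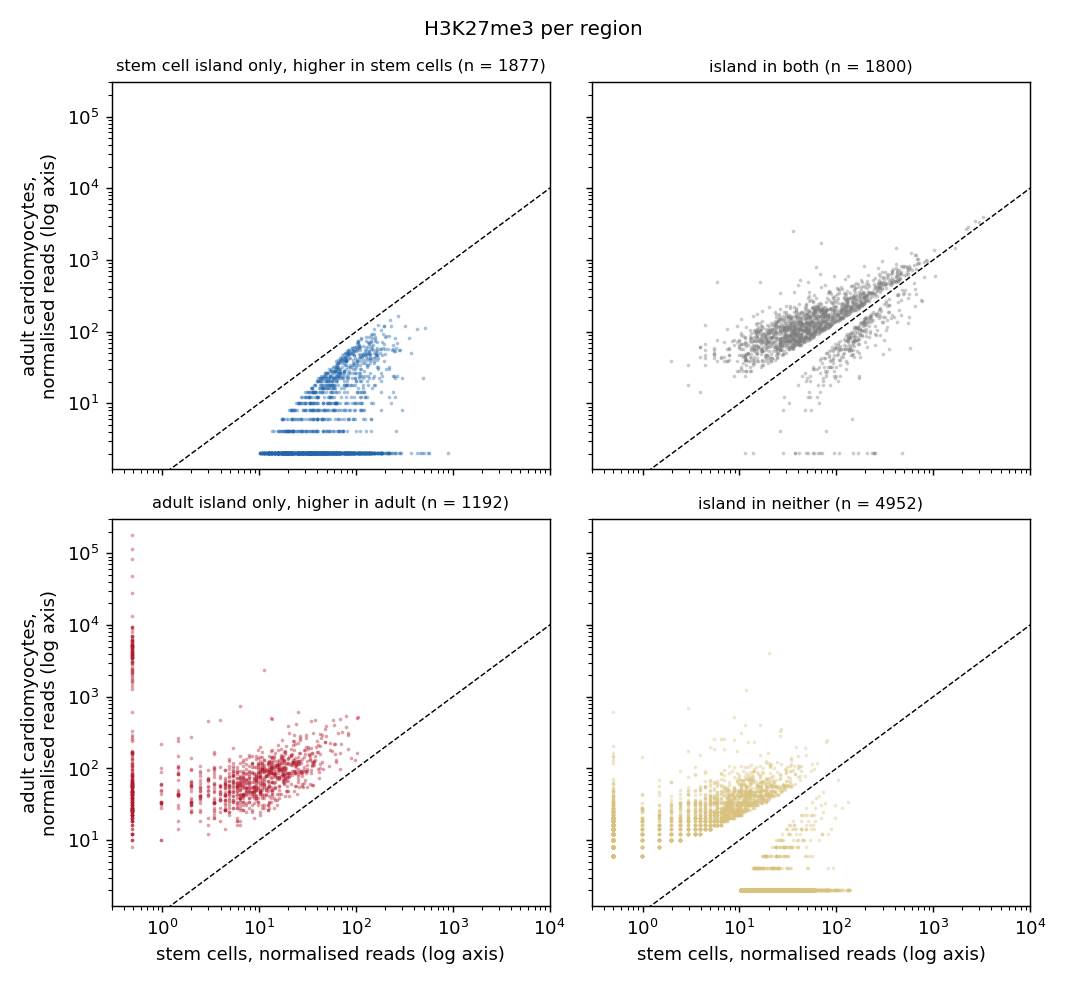
Normalised H3K27me3 reads per region in mES cells (x) and adult cardiomyocytes (y), both on log axes, split by the islands the region holds; each point is 1 region, the dashed line marks equal values, and 228 regions whose islands and values point opposite ways are not drawn. Regions at the floor form the flat band at 2.04 CMa reads and the upright band at 0.491 mES reads, and the gap along the line is the deposited limit on the false discovery rate.

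Regions were then grouped by the SICER islands of H3K27me3 they overlap. Stem-cell-only regions had more reads in mES, an mES island and no CMa island, and numbered 1877 (18.7% of 10049). Shared regions had an island in both cell types and numbered 1800 (17.9%). Adult-only regions had more reads in CMa, a CMa island and no mES island, and numbered 1192 (11.9%). Neither cell type had an island in 4952 regions (49.3%), and in 228 (2.27%) the only island lay in the cell type with fewer reads. Islands and reads come from the same libraries, so the direction inside the stem-cell-only and adult-only classes is fixed by how they were made. The islands of the other 3 marks come from other libraries, but they are not separate from how the regions were made. Listed regions are merged from islands of several lists, and 99.0% of them held an island of some list. Regions with no H3K27me3 island in either cell type therefore mostly held an island of another list. The part of this in the shares of that class and of all regions was not tested.

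**Figure D2:**
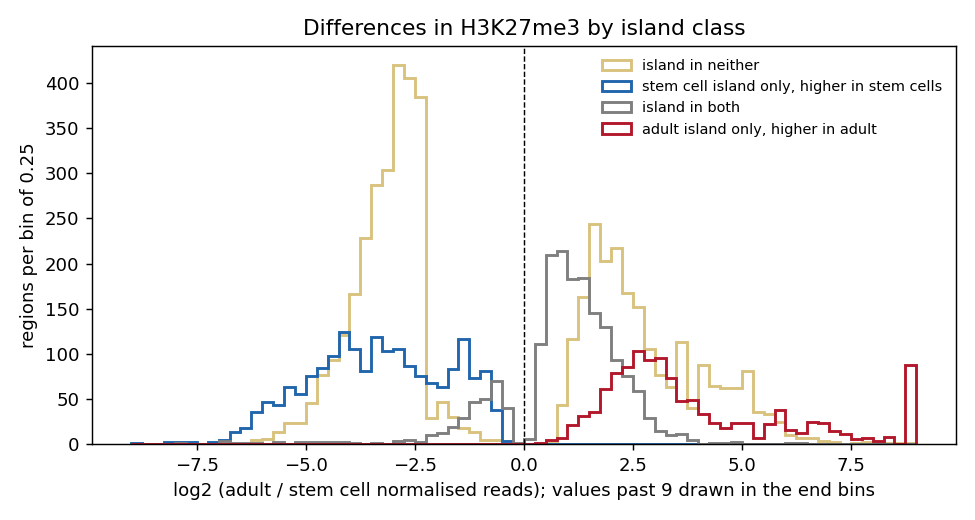
Number of regions (y, per bin) by the log2 ratio of normalised H3K27me3 reads, adult cardiomyocytes over mES cells (x), for the 4 island classes, with values past 9 in either direction drawn in the end bins. Shared regions sit mostly to the right of 0, with a median of 1.05, while stem-cell-only regions spread down from 0 around a median of -3.34.

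Stem-cell-only regions mostly held H3K4me3 as well as H3K27me3 islands in the stem cells. Their median was 99 reads in mES and 1 read in CMa, and 1117 of the 1877 (59.5%) stood at the CMa floor. The median log2 ratio was -3.34, or -2.24 when CMa values at the floor are set to 3 reads. An mES H3K4me3 island lay in 93.7% of them (95% Wilson interval 92.5 to 94.7), against 73.6% of all regions. Adult cardiomyocytes had an H3K4me3 island in 84.4% (82.7 to 86.0), against 66.0% of all regions. H3K79me2 islands were more frequent in the adult cells: one lay in 42.7% (40.5 to 45.0) in mES and in 79.6% (77.7 to 81.4) in CMa, against 56.9% and 64.3% of all regions. H3K79me2 in CMa without H3K79me2 in mES was found in 736 of them (39.2%), against 18.6% of shared, 7.21% of adult-only and 16.6% of all regions. H3K4me3 together with H3K79me2, the pair seen at transcribed promoters, lay in 1321 (70.4%) in CMa, against 24.2% of shared regions, 57.3% of regions with no H3K27me3 island and 49.1% of all regions. H3K9me3 islands were few on both sides, 7.14% in mES and 5.22% in CMa, against 7.94% and 17.6% of all regions.

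Region width could enter these shares, because the listed regions are merged from islands of several lists and wide ones touch more islands. The part of width was not tested, and the islands scored next still lie in those merged regions. Scored on the bases of the mES H3K27me3 islands alone, 1708 of the 2257 islands in stem-cell-only regions (75.7%, 73.9 to 77.4) overlapped a CMa H3K79me2 island. In shared regions 594 of the 2106 did (28.2%, 26.3 to 30.2). The share was 52.2% of mES islands in any listed region and 25.7% of all mES islands. The islands in stem-cell-only regions were narrower than those in shared regions, with a median of 4800 bp against 6800 bp. The stem-cell-only regions above the CMa floor, 760 in number, gave 70.9% with CMa H3K79me2, against 29.4% of shared regions above the floor. Without pile-up and floor regions, the share was 68.3% of regions with no H3K27me3 island and 50.1% of all regions.

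The 8 largest differences toward mES all had 1 CMa read, and CMa H3K79me2 islands covered most of each. All 8 were wider than 50 kb, where both traits were common. Of the 254 regions of 50 kb or more, 68.5% stood at the CMa floor and 96.1% held a CMa H3K79me2 island. The largest was chr8:87272600-87323742, 51143 bp wide, with 1803 mES reads and 1 CMa read. It was 145-fold higher in mES when the floor is taken as 3 reads. An mES H3K27me3 island covered 95.8% of it and a CMa H3K79me2 island 97.8%, and its H3K79me2 reads were 1 in mES and 1130 in CMa. Next came chr14:26269800-26390399, with 1161 mES reads and 1 CMa read for H3K27me3 and with 1 and 2624 for H3K79me2. At chr8:11241000-11362799 the reads were 1124 and 1 for H3K27me3, and 1 and 2509 for H3K79me2. At chr6:83339400-83414199 they were 1032 and 1, and 15 and 1220. In these last 3 regions mES H3K27me3 islands covered 62.9%, 53.2% and 71.1% and CMa H3K79me2 islands 87.1%, 95.9% and 81.0%. The mES library had low H3K79me2 reads in all 4, yet mES H3K79me2 islands covered 2.74%, 15.1%, 10% and 10.2% of them.

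The other 4 of the 8 varied in stem cell H3K79me2. chr15:27830200-27960599 had 980 mES reads and 1 CMa read for H3K27me3, but 881 and 2512 for H3K79me2, and a CMa H3K27me3 island still covered 0.460% of it. chr2:35421000-35570399 had 927 and 1 for H3K27me3 and 971 and 3173 for H3K79me2. chr14:58312600-58369599 had 977 and 1, with 86 and 976 for H3K79me2, and chr1:73986400-74115799 had 866 and 1, with 1 and 2614. CMa H3K79me2 islands covered 77.2% to 97.8% of the 8 regions.

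Among stem-cell-only regions with more than 3 CMa reads, a group looked up after the values had been seen, the ratio could be given with an interval. chr6:127087200-127115799 had 615 mES reads and 4 CMa reads, a ratio of 37.1 in favour of mES (95% interval 14.4 to 136). This and the later intervals cover only the counting error of the reads left after control subtraction. chr11:94847600-94883999 had 473 and 5 reads, a ratio of 22.8 (9.70 to 70.6), and chr19:56790600-56807199 had 371 and 4, a ratio of 22.4 (8.66 to 82.5). chr7:80516200-80565799 had 1012 and 11 reads, a ratio of 22.2 (12.3 to 44.6), and chr8:28079400-28096999 had 517 and 6, a ratio of 20.8 (9.48 to 56.9). mES islands covered 95.8%, 47.8%, 77.1%, 96.4% and 100% of these 5 in turn. No CMa H3K27me3 island lay in any of them, and each had both a CMa H3K4me3 and a CMa H3K79me2 island.

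**Figure D3:**
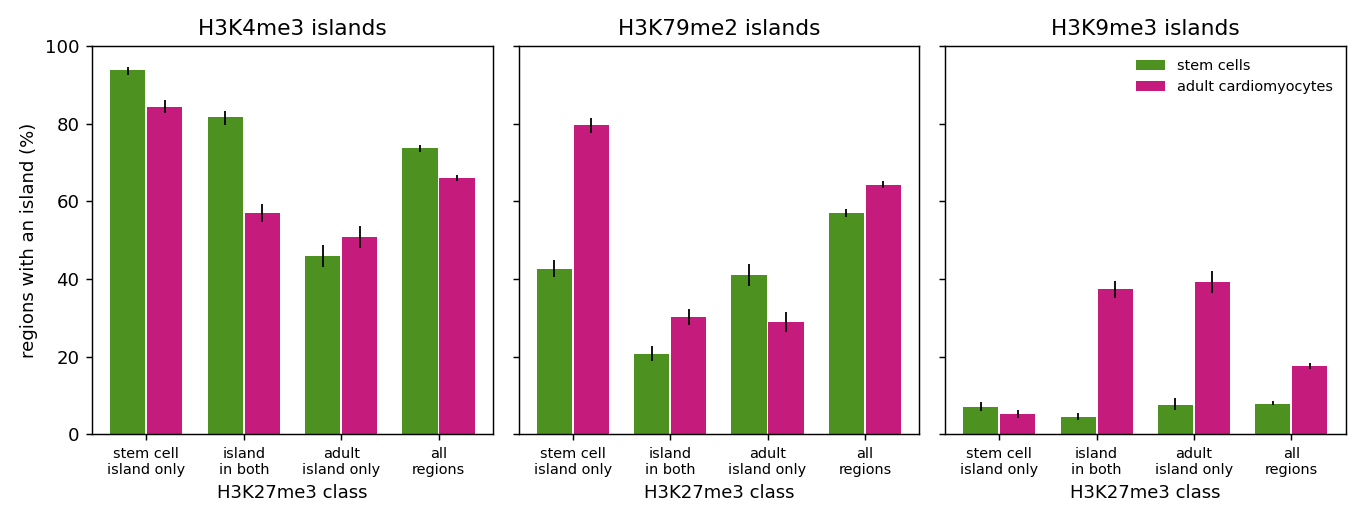
Share of regions (y, %) with an island of H3K4me3, H3K79me2 or H3K9me3 in mES cells and adult cardiomyocytes, for the stem-cell-only, shared and adult-only H3K27me3 classes and for all 10049 regions; error bars are 95% Wilson intervals and cover counting error only. H3K79me2 in stem-cell-only regions goes from 42.7% in mES to 79.6% in CMa, and H3K9me3 in CMa reaches 37.4% of shared and 39.3% of adult-only regions.

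Shared regions had the highest median H3K27me3 reads of the classes in both cell types. Their medians were 121 mES reads and 58 CMa reads. After the deposited scaling 1486 of the 1800 (82.6%) were higher in CMa, with a median log2 ratio of 1.05, whereas without the factors 270 (15.0%) were higher in CMa and 1514 in mES, so their direction depends on the scaling. The mES islands in them were wider than the CMa islands, with medians of 6800 and 2400 bp. The typical mES island there was covered by CMa islands over 46.2% of its length, and the typical CMa island was covered in full. H3K4me3 islands lay in 81.6% (79.7 to 83.3) of shared regions in mES and 56.9% in CMa, against 73.6% and 66.0% of all regions. H3K4me3 was found in mES only in 528 (29.3%) and in CMa only in 85 (4.72%), against 16.3% and 8.73% of all regions. H3K9me3 went the other way, from 4.44% in mES to 37.4% in CMa, against 7.94% and 17.6% of all regions. Neither H3K4me3 nor H3K79me2 was present in CMa in 668 (37.1%), against 6.34% of stem-cell-only, 39.8% of adult-only and 18.8% of all regions.

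The same 5 regions had the highest normalised H3K27me3 reads in both cell types, outside pile-up and with an island on the higher side. The first 4 described here were broad domains of one kind. chr6:52099200-52228999, 129800 bp wide, had 5987 mES reads and 1649 CMa reads, a scaled ratio of 1.14 toward CMa (1.08 to 1.21). chr15:102737400-102875399 had 5536 and 1738 reads, a ratio of 1.30 (1.23 to 1.37), and its mES island of 137000 bp was the widest of that list. chr11:96110800-96221799 had 4708 and 1432, a ratio of 1.26 (1.19 to 1.34), and chr2:74484800-74596999 had 4459 and 1345, a ratio of 1.25 (1.18 to 1.33). In all 4 the mES read count was the higher before scaling, so the direction of these small ratios comes from the factors.

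Those 4 domains were covered widely in all 3 cell populations. mES H3K27me3 islands covered 98.6% to 100% of them, CMa islands 78.6% to 88.3% and neonatal islands 81.8% to 93.2%. At chr6:52099200-52228999 the mES H3K4me3 islands covered 41.4% and those of CMa 38.4%, and CMa H3K9me3 islands covered 53.2%. CMa H3K79me2 islands covered 7.03% of the chr11 and 0.725% of the chr15 domain and were absent from the others, while CMa H3K79me2 reads were 212 to 352 in the 4, against 1 in mES. H3K9me3 reads at the chr6 domain were 130 in mES and 1059 in CMa. The fifth region, chr11:3022200-3100199, was of another kind: it had 6682 mES reads and 1965 CMa reads, a ratio of 1.22 (1.16 to 1.28), with H3K9me3 islands over 89.2% of it in mES and 92.8% in CMa. It held no neonatal H3K27me3 island, and its neonatal value stood at the floor in the authors' deposited tables.

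Some shared regions differed strongly, and these were looked up after the values had been seen. chr4:153956200-154022799 had 1187 mES reads and 29 CMa reads, 9.87-fold higher in mES (6.84 to 14.8), with H3K79me2 at 1 and 1072 reads. In the other direction chr9:43550200-43574199 had 142 and 856 reads, 25-fold higher in CMa (20.9 to 30.1). The region of a CMa island among the 3 widest, chr3:34543400-34573999, had 127 mES reads and 388 CMa reads, 12.7-fold higher in CMa (10.3 to 15.6). An mES H3K27me3 island covered 6.54% of it and CMa islands 92.2%, while H3K79me2 reads were 509 in mES and 45 in CMa and an mES H3K79me2 island covered 90.2%. The neonatal library had 353 reads there and islands over 83.0%.

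Adult-only regions were shorter. Their medians were 14 mES reads and 35 CMa reads over 4600 bp, against 9000 bp for stem-cell-only regions, and the median log2 ratio was 3.22. Their median normalised CMa density was 16.1 reads per kb, close to the 16.6 of shared regions. The mES value was at the floor in 269 (22.6%), and 114 were pile-up regions. Outside pile-up there were 1078, with a median log2 ratio of 3.05. Without the scaling factors, 1014 of the 1192 (85.1%) still had more reads in CMa. H3K79me2 islands lay in 40.9% of them in mES and 28.9% in CMa. Both were under the 56.9% and 64.3% of all regions, whose median width was 9200 bp. On the bases of the CMa H3K27me3 islands alone the order was the reverse. In adult-only regions 38.1% and 23.3% of those islands overlapped H3K79me2. The shares were 12.5% and 18.1% in shared regions, and 20.8% and 20.7% in all listed regions. H3K79me2 in mES only was found in 230 (19.3%, 17.2 to 21.6), against 44 (2.34%) of stem-cell-only regions, 166 (9.22%) of shared regions and 9.32% of all. H3K4me3 was in mES in 46.0% and in CMa in 50.8%, against 73.6% and 66.0% of all regions, and in 50.5% and 47.2% outside pile-up. CMa H3K9me3 islands lay in 39.3%, against 17.6% of all regions, and in 38.3% outside pile-up.

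The 8 largest differences toward CMa outside pile-up all had 1 mES read. chr17:3004600-3039399 had 687 CMa reads, at least 949.8-fold higher in CMa, and CMa islands of H3K27me3, H3K4me3 and H3K9me3 each covered 100% of it. Its CMa reads were 1893 for H3K4me3 and 1718 for H3K9me3, with 1 mES read in both. With the same floor, chr17:13574200-13597799 had 304 CMa reads, 420.3-fold higher, and chr16:3231400-3249599 had 164, 227-fold higher. The remaining 5, at chr8:126119400-126134399, chr7:12595287-12603399, chr4:154222200-154226999, chr10:84876800-84882199 and chr8:126075400-126083799, had 145, 135, 120, 85 and 84 CMa reads. All 8 were also higher in CMa for H3K4me3 and H3K9me3, with mES at 1 read for H3K4me3 in all 8. Whether stem cell reads can be placed at these intervals was not tested.

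The 5 largest ratios among adult-only regions above the mES floor and without a CMa H3K9me3 island were looked up after the values had been seen, and the other marks differed among them. The largest was chr17:36291000-36294199, with 4 mES reads and 49 CMa reads, a ratio of 50.8 (18.6 to 194). Its H3K4me3 reads were 24 in mES and 23 in CMa, higher in CMa only after scaling, and H3K79me2 was higher in mES. chr17:35638800-35648399 had 7 mES reads and 84 CMa reads, 49.8-fold higher in CMa (23.1 to 128). Its H3K4me3 reads were 704 in mES and 40 in CMa and its H3K79me2 reads 562 and 38. At chr1:13093200-13095799 the H3K27me3 reads were 4 and 33, a ratio of 34.2 (12.2 to 133), with H3K4me3 at 105 and 13. At chr11:106908000-106920199 the H3K27me3 reads were 27 and 251, a ratio of 38.6 (25.9 to 59.7), and the H3K79me2 reads were 11 in mES and 1153 in CMa. At chr13:21824600-21828063 the ratio was 33.2 (11.8 to 129), and both H3K4me3 and H3K79me2 were higher in CMa after scaling. After scaling, H3K4me3 was thus higher in mES in 2 of the 5 and in CMa in 3. Before scaling, chr13:21824600-21828063 also had more H3K4me3 reads in mES, 108 against 42.

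The deposited tables of the other marks for the same pair of cell types gave a reading that does not rest on islands of those marks. The classes themselves still rest on H3K27me3 islands. The adult libraries share 1 input and the mES libraries of H3K27me3, H3K4me3 and H3K9me3 share another, so the values are set side by side only. For H3K9me3, 224 of 940 listed stem-cell-only regions (23.8%), 1228 of 1327 shared regions (92.5%) and 780 of 837 adult-only regions (93.2%) were higher in CMa, against 54.4% of all H3K27me3 regions listed there and 50.7% of that table as a whole. CMa stood at its H3K9me3 floor in 372, 22 and 18 of the listed regions of these 3 classes in turn. A ratio there depends on the value set for the floor. The mES value stood at its H3K9me3 floor in 38, 82 and 316. For H3K79me2 the shares were 1393 of 1580 (88.2%), 1090 of 1223 (89.1%) and 331 of 627 (52.8%), against 62.8% and 56.9%. The difference in H3K79me2 islands between stem-cell-only and shared regions was therefore not seen in the direction of the table values. mES stood at its H3K79me2 floor in 1082 and 1021 of those listed regions. For H3K4me3 the shares were 63.1%, 65.2% and 70.2% (66.4% outside pile-up), against 59.1% and 49.8%, so the first 2 classes lay near the share of all H3K27me3 regions listed there.

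The regions with no island formed a class of low counts. Their medians were 26 mES reads and 1 CMa read. Of the 4952, 2751 were higher in mES, and 2554 of those stood at the CMa floor, with a median width of 17200 bp. H3K79me2 islands lay in 79.2% of the class in mES and 79.5% in CMa, against 42.7% and 79.6% of stem-cell-only regions. Regions of this class mostly held an island of another list by the way regions were merged, and its part in these shares was not tested. The 2201 higher in CMa were narrower, with a median of 5200 bp, and had medians of 9 and 12 reads.

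The floor followed region width. CMa stood at the floor in 13.8% of regions under 5 kb, 25.4% of those from 5 to 10 kb, 51.7% from 10 to 20 kb, 63.8% from 20 to 50 kb and 68.5% from 50 kb up. The share higher in CMa went from 78.3% to 13.0% over the same steps, and the share with a CMa H3K79me2 island from 29.7% to 96.1%. The floor was shared with another CMa library. Where CMa H3K27me3 stood at the floor, 1051 of 2312 regions listed in the H3K9me3 table (45.5%) were at the CMa floor for H3K9me3 too, against 202 of 3740 (5.40%) elsewhere. The adult libraries have 1 input in common. The part of control subtraction in the CMa values of wide regions was not tested.

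**Figure D4:**
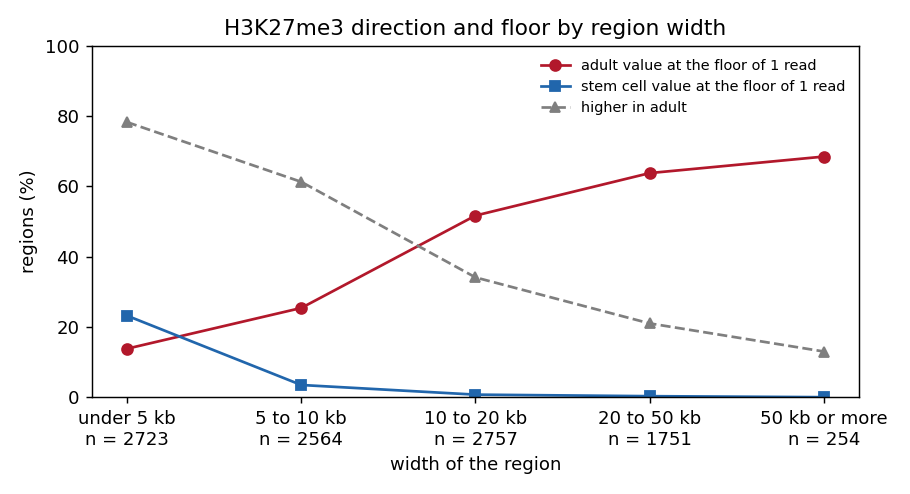
Share of the H3K27me3 regions (y, %) by region width (x), with the adult or stem cell value at the floor of 1 read and with the higher normalised count in adult cardiomyocytes; points are shares of the regions in a width bin, whose number stands under it. The adult share at the floor goes from 13.8% to 68.5% while the share higher in adult goes from 78.3% to 13.0%.

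Neonatal cardiomyocytes shared most of the regions that hold islands in both other cell types. A neonatal H3K27me3 island lay in 80.2% (78.3 to 82.0) of shared regions, 34.3% (31.7 to 37.1) of adult-only regions, 16.4% (14.8 to 18.1) of stem-cell-only regions and 24.2% of all regions. The 307 stem-cell-only regions with a neonatal island had medians of 169 mES reads and 11 CMa reads, and the 1570 without had 90 and 1. At the top broad domain, chr6:52099200-52228999, the authors' deposited table gave 1686 neonatal reads. At chr8:87272600-87323742 the neonatal value was at the floor, although a neonatal island covered 14.9% of it.

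The island lists cover far more places than the table. mES had 21648 H3K27me3 islands over 111 Mb with a median width of 4000 bp, and CMa had 23559 over 50 Mb with a median of 1800 bp. Of the mES islands 6488 overlapped a CMa island (30%, 29.4 to 30.6), and of the CMa islands 8653 overlapped an mES island (36.7%, 36.1 to 37.3). Only 21.0% of the mES and 19.9% of the CMa islands lay in a listed region. The mES islands in listed regions overlapped mES H3K4me3 islands more often (79.2%) than those outside (25.1%). The merging of listed regions from islands of several lists could enter this difference, and its part was not tested.

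Overlap between the lists went with width. Of mES islands under 2 kb 13.5% overlapped a CMa island, going through 21.6%, 39.3% and 67.7% to 85.9% (81.4 to 89.5) of the 284 islands of 20 kb or more. The neonatal shares followed closely, from 12.3% to 86.6%. Wide islands also have more bases with which to touch another island, and the share of mES island bases inside CMa islands went from 9.34% in the narrowest bin to 43.5% in the widest. Among the widest mES islands 91.5% carried mES H3K4me3, 77.5% CMa H3K4me3 and 55.6% CMa H3K9me3. CMa islands followed the same course up to 20 kb, from 27.8% under 2 kb to 92.4% of the 79 islands from 10 to 20 kb, and 7 of the 9 wider ones (77.8%) overlapped an mES island. The mES islands next in width to that at chr15:102737400-102874399 were chr11:96110800-96221799 and chr2:33411400-33506799, of which the last, 95400 bp wide, lay in no listed region and was covered by CMa islands over 53.2%. The widest CMa island, chr1:90119200-90166799 with 47600 bp, was covered by mES H3K27me3 islands over 77.3% and by CMa H3K9me3 islands over 97.9%. Across all mES islands, 16.9% were found again in both cardiomyocyte stages, 13.1% in CMa only, 10.3% in CMp only and 59.7% in neither.

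**Figure D5:**
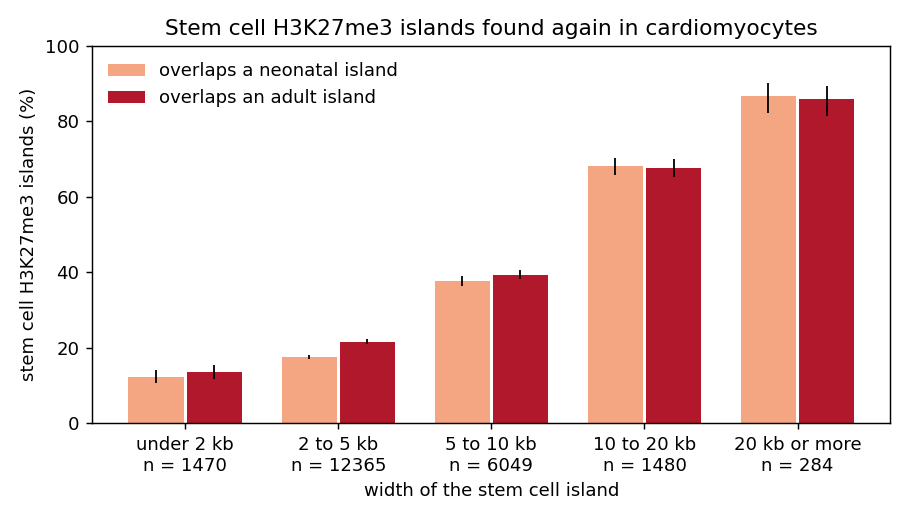
Share of mES H3K27me3 islands (y, %) that overlap a neonatal or an adult cardiomyocyte island by at least 1 bp, by width of the mES island (x, number of islands under each bin); error bars are 95% Wilson intervals. The adult share goes from 13.5% under 2 kb to 85.9% at 20 kb or more.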

How the data were processed

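H3K27me3 chromatin immunoprecipitation data of 1 adult library and of published mES reads were compared. Per the submitters' processing notes, reads were handled on build mm9 with DiffBind 1.2.0, MACS 1.4.2, SICER 1.1 and Bowtie 0.12.8. The authors deposited a score per SICER island and MACS region, used only to rank islands within a list. Per the deposited description, the tables come from DiffBind with default settings. The deposited value per cell type is a log2 normalised read count, the fold is their log2 difference, and the false discovery rate is an adjusted p-value by the authors. Unlogged values divided by their column's minimum were whole within 0.01 in 100% of cases and were taken as reads after control subtraction. No header or label says how the factors were set.

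Overlap meant at least 1 bp. Ratios carry conditional binomial intervals and shares 95% Wilson intervals, covering counting error only, since PCR reads without molecular identifiers are not independent molecules. The ratio intervals treat the reads left after control subtraction as plain counts. They leave out the counting error of the subtracted control reads and can therefore be too narrow. Ratios at the floor take 3 reads per library. Control reads had been subtracted, so these ratios are not lower limits of the difference in raw reads. No test or p-value was computed, with 1 library a side. The ratio code was tested on simulated reads without control subtraction. No label gives the total depth. The regions held 881249 mES and 662146 CMa reads.

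Named regions were the 8 largest folds in each direction and the 5 highest in each cell type, with an island on the higher side and outside pile-up, plus the 3 widest islands per list and the 3 highest pile-ups. Members, classes and lists were chosen with earlier results of these data known. The 12 gene lists and the cell type markers were not run, because no mm9 annotation was used. Python 3.11.15, pandas 2.3.3, numpy 2.4.6, scipy 1.17.1 and matplotlib 3.10.9 were used.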

Additional observations from a re-analysis of the deposited data

How the results depend on the processing

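The counts of 5045 regions higher in CMa and 5004 higher in mES stayed within 1.5 times their value without pile-up (at each of 3 limits), with equal read sums outside pile-up, at 2-fold, at a stricter false discovery rate and with X and Y. Median centring moved each log2 ratio by -0.32 and gives equal counts by construction. They became 2678 and 2191 with an island in the cell type with more reads, and 2844 and 2253 with an island in either. Above the floor in both, 1259 were higher in mES. At 4-fold, 2775 were higher in CMa and 4153 in mES, or 2775 and 1998 with floor values set to 3 reads. Without the deposited factors 2608 were higher in CMa, and under 10000 bp 1582 were higher in mES. These last 2 settings and the island in either cell type were chosen after seeing the data. The overlap of islands, 30% of mES and 36.7% of CMa islands, became 12.1% and 33.1% when at least 50% of the island had to be covered, 29.1% and 38.5% with equal numbers of top islands, 4.12% and 8.17% with MACS regions, and 20.6% and 45.9% for islands of at least 2000 bp. MACS listed 1820 mES and 955 CMa regions, with median widths of 3464 and 94 bp. With MACS regions of the other marks, CMa H3K4me3, H3K79me2 and H3K9me3 were found in 26.8%, 11% and 0.213% of stem-cell-only, 5.83%, 2.61% and 1.44% of shared and 9.82%, 4.53% and 6.88% of adult-only regions. With an overlap of at least 1000 bp, stem-cell-only regions gave 81.2% for H3K4me3 and 76.7% for H3K79me2, and adult-only regions 45.1%, 25.3% and 35.7% for the 3 marks. Without pile-up and floor regions, stem-cell-only regions gave 80.3%, 70.9% and 8.42%, and adult-only regions 43.3%, 34.5% and 32.5%. The cause of these moves was not tested, apart from the fewer regions that each stricter setting keeps. Without the factors most shared regions had more reads in mES, as given above. No paired analysis was possible because each cell type has 1 library. The alternatives for gene lists were not run, since no mm9 annotation was used. CMa stood at its floor in 3745 of the 5004 regions higher in mES, where a ratio depends on the value set for the floor. The part of depth in this was not tested.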

Other observations

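Stem-cell-only regions occurred in 1053 windows of 1 Mb, 42 of which held at least 5. The 2 fullest held 10 each. In chr10:79000001-80000000, CMa H3K79me2 islands lay in all 10 and a CMa H3K9me3 island in 1. In chr18:37000001-38000000, all 10 had a CMa H3K9me3 island and an mES H3K4me3 island, none had a neonatal H3K27me3 island, and the medians were 155 mES reads and 4.5 CMa reads. Over all stem-cell-only regions a CMa H3K9me3 island lay in 5.22%, a CMa H3K79me2 island in 79.6%, an mES H3K4me3 island in 93.7% and a neonatal H3K27me3 island in 16.4%. Shared regions were densest in chr11:118000001-119000000, with 14, of which 13 had a neonatal island, against 80.2% of all shared regions. Adult-only regions were densest in a pair of windows with 9 each. In chr13:21000001-22000000, 8 of the 9 had mES H3K4me3, none CMa H3K79me2 and 2 a neonatal H3K27me3 island, with medians of 4 mES reads and 31 CMa reads. In chr5:113000001-114000000, all 9 had mES H3K4me3, 3 CMa H3K79me2 and 8 a neonatal island, with medians of 22 and 40 reads. Over all adult-only regions these 3 shares were 46.0%, 28.9% and 34.3%. The windows were looked up after the values had been seen.

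By chromosome, the share of regions higher in CMa went from 40.9% (35.9 to 46.1) on chromosome 19 to 60.1% (55.4 to 64.7) on chromosome 12, with 59.9% on chromosome 13, around 50.2% overall. These shares carry counting error only, and the scaling moves all of them together.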
